A study of Mus musculus with 10 samples.

Results

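The loci of 4 genes that mark minority cells of the liver were examined in peak lists from whole mouse liver. Kdr and Stab2 mark endothelial cells and Csf1r and Clec4f mark Kupffer cells, the resident macrophages of the liver. Members were all peaks that overlapped 1 of 4 windows on the mouse build mm9: chr5:76300000-76400000 (Kdr), chr10:86280000-86490000 (Stab2), chr18:61240000-61310000 (Csf1r) and chr6:83570000-83620000 (Clec4f). They numbered 232 of the 344928 peaks in 9 lists. The lists came from ChIP-seq (chromatin immunoprecipitation and sequencing) of full sections of normal liver. The FFPE (formalin-fixed, paraffin-embedded) lists comprised 6 of H3K27Ac by FiTAc-seq, which heats the section in detergent overnight. FiTAc-seq was run at 50 °C with 40 or 5 min of sonication, at 65 °C with 40 or 5 min, and at 80 °C with 40 min. Only 65 °C with 5 min had a replicate library. Conditions are written below as 50 °C/40 min and so on, and the replicate libraries of 65 °C/5 min are called the pair. FiT-seq, which digests FFPE tissue with proteinase K, gave 1 list of H3K27Ac and 1 of H3K4me2. The fresh frozen H3K27Ac list, from 1 library of formaldehyde-crosslinked and sonicated tissue, served as the comparison, and the series calls it matched. Strain, age and number of animals are not given in the sources used here. All cells of a section entered each library, so no peak can be assigned to a cell type. Fewer cells of a type and less mark per cell cannot be told apart. The windows may also hold neighbouring genes. In the RefSeq gene table of GRCm38.p6, the protein-coding neighbours are Kit and Srd5a3 for Kdr, Nt5dc3 and 1700113H08Rik for Stab2, Pdgfrb and Hmgxb3 for Csf1r, and Stambp and Cd207 for Clec4f.

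Most liver nuclei belong to hepatocytes, and sinusoidal endothelial cells and Kupffer cells line the blood channels between them. Kdr encodes VEGFR2, the main signalling receptor for VEGF-A on endothelium. Stab2 encodes stabilin-2, a scavenger receptor of sinusoidal endothelium that clears hyaluronan from blood. Csf1r encodes the receptor for CSF1 and IL-34, on which tissue macrophages depend for survival. Clec4f encodes a C-type lectin that in the mouse is a marker of Kupffer cells. Acetylated lysine 27 of histone H3 is found at active promoters and enhancers, and in a bulk tissue a site used only in a rare cell type contributes few of the fragments.

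Promoter sequences are shown for the 3 of 4 members matched in the RefSeq promoter table, since this mark collects around active start sites. Csf1r was not matched. Each run is the 250 bases before the annotated start, read 5′ to 3′ on the gene's strand, which is the minus strand for these 3 genes. Capitals mark GGAA or TTCC, the core that ETS factors bind, read on both strands. ETS factors include ERG in endothelium and PU.1 in macrophages. The coordinates are those of GRCm38.p6, a later build than the mm9 of the peaks, so no peak was placed on these bases. They are chr5:75978456-75978705 for Kdr, chr10:87007943-87008192 for Stab2 and chr6:83656117-83656366 for Clec4f.
Kdr: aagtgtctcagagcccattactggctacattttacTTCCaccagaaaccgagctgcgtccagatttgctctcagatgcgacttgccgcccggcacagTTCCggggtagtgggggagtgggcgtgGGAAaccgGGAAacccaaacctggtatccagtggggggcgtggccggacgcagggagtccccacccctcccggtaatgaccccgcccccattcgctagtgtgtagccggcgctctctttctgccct
Stab2: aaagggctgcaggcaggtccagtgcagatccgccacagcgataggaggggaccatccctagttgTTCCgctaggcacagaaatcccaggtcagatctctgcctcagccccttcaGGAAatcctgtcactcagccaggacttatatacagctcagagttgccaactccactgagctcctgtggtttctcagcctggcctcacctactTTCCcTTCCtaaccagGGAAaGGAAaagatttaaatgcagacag
Clec4f: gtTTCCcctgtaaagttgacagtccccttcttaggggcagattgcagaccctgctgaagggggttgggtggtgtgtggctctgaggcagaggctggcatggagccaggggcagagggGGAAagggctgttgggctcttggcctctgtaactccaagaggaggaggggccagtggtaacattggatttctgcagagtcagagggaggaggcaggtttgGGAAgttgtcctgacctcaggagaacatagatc

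The promoters differ in CpG content. The Kdr run has 16 CpG dinucleotides and 61.6% G or C, and 25.4% of 32851 promoter runs of the same length have at least as many CpG. Stab2 has 3 CpG, which 71.0% of promoters reach, and Clec4f has 0. The ETS core occurs 4 times in Kdr, 6 times in Stab2 and 3 times in Clec4f. At least 1 copy is in 93.4% of all promoters, and the median is 3. At least as many as in Kdr, Stab2 and Clec4f are in 33.4%, 8.69% and 54.7% of promoters. These are counts of letters, not of bound sites.

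The 5 long FiTAc-seq lists had H3K27Ac peaks in all 4 windows, except for the Clec4f window at 50 °C/5 min. Fresh frozen liver had peaks in all 4 windows too. Most of them were weak for their list, as were most FFPE peaks of the windows other than at 50 °C/5 min. The list at 50 °C/40 min had 55 peaks in the windows and that at 50 °C/5 min held 9. The list at 65 °C/40 min held 49, and the pair had 55 and 41 (mean 48 ± 9.9, SD, n = 2). Fresh frozen liver held 23. With peaks merged within 500 bp the pair had a mean of 26.5 and fresh frozen liver 17, and among the 30000 highest peaks of each list they had 20 and 6. The list at 80 °C and both FiT-seq lists held 0. Of fresh frozen tiles of the same length on chromosomes 1 to 19 and X, 41.8% of those of 100 kb (the length of the Kdr window), 54.7% of those of 210 kb (Stab2), 35.8% of those of 70 kb (Csf1r) and 30.4% of those of 50 kb (Clec4f) held at least 1 peak. The windows' FFPE counts were reached by fewer tiles than their fresh frozen counts at Kdr and Clec4f, apart from 50 °C/5 min. At Kdr, 5.36% of tiles held at least as many peaks as the window at 50 °C/40 min, 21.6% at 50 °C/5 min, 8.50% at 65 °C/40 min, and 2.80% and 5.33% in the pair, against 15.4% in fresh frozen liver. At Stab2 the shares were 6.65%, 20.4%, 5.70%, 5.23% and 11.4% in the same order of FFPE lists, against 7.95% in fresh frozen liver. At Csf1r they were 24.2%, 17.0%, 30.7%, 15.0% and 14.4%, against 19.2% in fresh frozen liver.

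**Figure D1:**
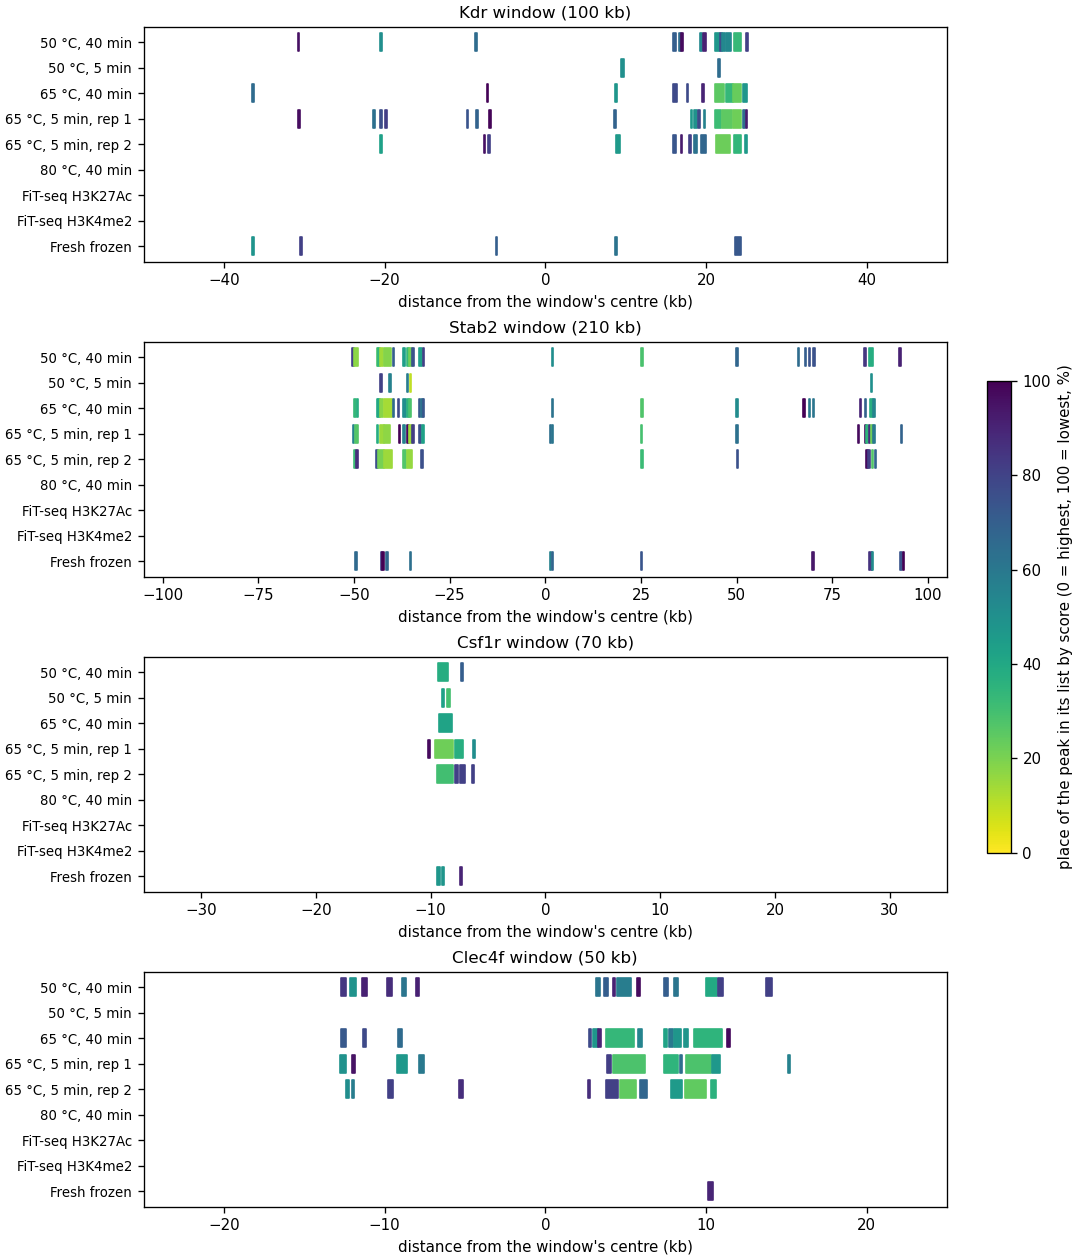
Position of every peak in the 4 windows (x axis, distance from the window's centre in kb; each row is a library), coloured by the place of the peak in its own list by score. Peaks narrower than 0.2% of the window are drawn at that width. At Csf1r and in parts of Kdr and Stab2 the long FFPE lists and fresh frozen liver have peaks in the same places, and the rows at 80 °C and of FiT-seq are empty.

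Each peak has a score from the authors, taken to be a −log10 q-value, which depends on the depth and background of its library, so scores describe peaks within 1 list. The place of a peak in its list (0% is the highest peak, 100% the lowest) depends in turn on how many peaks were called, from 38409 to 65332 in the long FFPE lists and 48239 in fresh frozen liver. Places of different lists are given side by side as a description and cannot show a change between tissues. In the long FFPE lists the highest peak of the windows stood at 14.5% at 50 °C/40 min, 9.47% at 50 °C/5 min, 13.5% at 65 °C/40 min, and 15.0% and 14.7% in the pair. It lay in the Stab2 window in all 5. Of 19 highest peaks of a window in an FFPE list, 18 had a higher place than the fresh frozen one and 17 a higher rank counted from the top. The exception by place was Kdr at 50 °C/5 min, and those by rank were Csf1r at 50 °C/40 min and 65 °C/40 min. A highest peak depends on how many peaks the window held, which differed between lists. No share over all tiles was computed for highest peaks. The 23 fresh frozen peaks had scores between 2.71 and 10.3 with a median of 6.26, and the median of the whole list was 9.79. Only 3 lay above that median, and the highest stood at 47.4%. They were narrow, and their median width was 254 bp, that of the whole list 345 bp. The FFPE peaks of the windows were also low for their lists, apart from 50 °C/5 min. Their median scores were 6.865 at 50 °C/40 min, 5.654 at 50 °C/5 min, 7.081 at 65 °C/40 min, and 6.65 and 5.574 in the pair. The whole lists gave 8.896, 5.654, 8.089, 7.621 and 7.439. Median widths were 296, 277, 293, 313 and 319 bp, against 330, 286, 315, 355 and 353 bp in the whole lists.

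**Figure D2:**
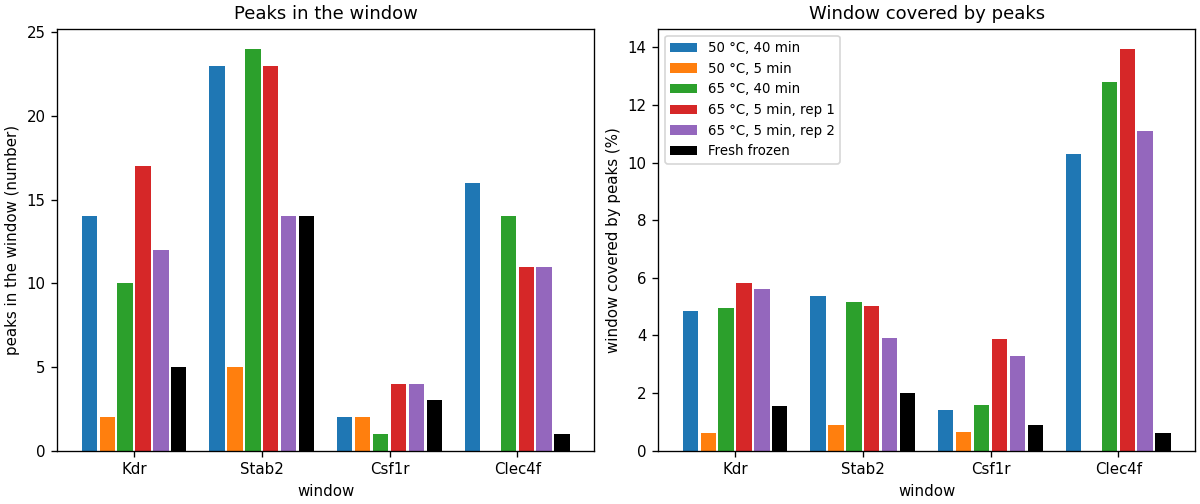
Number of H3K27Ac peaks (left) and percent of the window's length covered by peaks (right) in each window, 1 bar per library, the 5 long FFPE lists left of fresh frozen liver. Peaks cover 10.3% to 13.9% of the Clec4f window in 4 FFPE lists, against 0.604% in fresh frozen liver, which has 1 peak there.

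At Kdr, the highest FFPE peaks lay in a stretch whose fresh frozen peak stood low in its own list. Joining the peaks of the 6 long H3K27Ac lists at gaps of up to 500 bp gave 12 sites in this window. Over the genome, 28.7% of sites joined likewise had peaks in all 6 lists. In this window 1 site did, chr5:76371060-76375177. Peaks covered 2905 bp of it at 50 °C/40 min, 243 bp at 50 °C/5 min, 3462 bp at 65 °C/40 min, and 3228 and 2882 bp in the pair, against 748 bp in fresh frozen liver. It carried the window's highest peak in the long FFPE lists other than that of 50 °C/5 min. By place, these peaks stood at 32.8% at 50 °C/40 min (chr5:76373490-76374378, score 13.3), 23.2% at 65 °C/40 min (chr5:76373373-76374394, score 17.2), and 21.9% and 22.3% in the pair (chr5:76373397-76374295, score 16.5, and chr5:76371237-76372945, score 15.0). At 50 °C/5 min the site's peak stood at 65.0%. The fresh frozen peak of the site stood at 72.9%.

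The highest fresh frozen peak of the Kdr window lay elsewhere. It was chr5:76313556-76313713, a 158 bp peak with a score of 10.1, and it was met only at 65 °C/40 min, with a score of 5.97. The next, chr5:76358686-76358927 (score 7.72), was met with scores of 8.24 at 65 °C/40 min and 5.66 and 7.74 in the pair. At 50 °C/5 min the nearest peak to it was 449 bp away and was that list's highest of the window (chr5:76359376-76359752, score 5.65). The peak chr5:76343862-76344017 (score 6.64) was met in none of the 5 lists, although a peak lay 706 and 805 bp away in the pair. The peak chr5:76319416-76319669 (score 5.40) was met only in the first library of the pair, with a score of 3.44. The remaining peak, chr5:76373581-76374328, belongs to the site found in all 6 lists.

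Stab2, the longest window at 210 kb, had the most peaks and held the highest peak of the 4 loci in each long FFPE list. Per 100 kb it had 11.0 peaks at 50 °C/40 min, 2.38 at 50 °C/5 min, 11.4 at 65 °C/40 min, and 11.0 and 6.67 in the pair, and 6.67 in fresh frozen liver. The Clec4f window, of 50 kb, was denser in 4 FFPE lists, with 32.0, 28.0, 22.0 and 22.0 peaks per 100 kb. The 15 sites at Stab2 included 3 with peaks in all 6 lists, against 28.7% of sites over the genome. The highest peak of the site chr10:86340770-86345425 stood at 14.5% at 50 °C/40 min, 56.6% at 50 °C/5 min, 13.5% at 65 °C/40 min, and 15.0% and 14.7% in the pair, and at 66.9% in fresh frozen liver. At chr10:86347757-86350526 the places were 21.8%, 9.47%, 28.4%, 15.0% and 15.9% in the same order of FFPE lists, and 63.7% in fresh frozen liver. At chr10:86468521-86471346 they were 37.7%, 50.2%, 37.3%, 21.9% and 27%, and 51.9% in fresh frozen liver. FFPE peaks covered more of each site than fresh frozen peaks did, except at 50 °C/5 min. There they covered 852 bp of the first site, against 916 bp in fresh frozen liver, and 423 bp of the last, against 767 bp.

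The 14 fresh frozen peaks at Stab2 were spread over 8 of the 15 sites, and every one of these sites had a peak in at least 2 FFPE lists. The highest, chr10:86470382-86470733 (score 9.37, place 51.9%), was met in all 5 lists. So was chr10:86349635-86349819 (score 7.45), which carried the window's highest peak at 50 °C/5 min (chr10:86349658-86349977, score 12.8) and in the first library of the pair (chr10:86349460-86350174, score 24.7). The second highest, chr10:86386253-86386461 (score 8.63), was met only in the first library of the pair, with a score of 5.80. The next in score, chr10:86335147-86335799 (score 7.13) and chr10:86343487-86343927 (score 6.96), were met in all but the 50 °C/5 min list. The highest peak of the window was chr10:86341877-86342700 at 50 °C/40 min, chr10:86342779-86344824 at 65 °C/40 min and chr10:86342846-86344900 in the second library of the pair.

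Csf1r showed 1 compact site. All 3 fresh frozen peaks lay in chr18:61264773-61267990, and so did every FFPE peak of the window apart from 1 in each library of the pair. Its highest peak stood at 37.7% at 50 °C/40 min, 29.9% at 50 °C/5 min, 41.8% at 65 °C/40 min, and 21.9% and 30.2% in the pair, and at 47.4% in fresh frozen liver. The fresh frozen peak chr18:61265577-61265869 was that list's highest of the 4 windows. It was met in 4 lists, and at 50 °C/5 min the nearest peak was 130 bp away. The peak chr18:61265987-61266161 (score 10.2) was met in all 5, and chr18:61267589-61267734 (score 4.50) at 50 °C/40 min and in the pair. The highest FFPE peaks were chr18:61265693-61266524, chr18:61266424-61266678, chr18:61265774-61266875, chr18:61265412-61266970 and chr18:61265569-61266920 in the same order of lists.

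In the 4 FFPE lists with peaks there, the Clec4f window had the largest ratio of covered length to fresh frozen liver, from 17.0 to 23.1, against a fresh frozen length of 302 bp in 1 peak. In base pairs, the added length was larger at Stab2 than at Clec4f at 50 °C/40 min (7037 and 4843 bp) and at 65 °C/40 min (6594 and 6098 bp). The window held 16 peaks at 50 °C/40 min, 0 at 50 °C/5 min, 14 at 65 °C/40 min, and 11 in each library of the pair. Fresh frozen liver had 1 peak, chr6:83605108-83605409, with a score of 4.51 at place 89.8%. Of all tiles of 50 kb, 1.09% held at least 16 peaks at 50 °C/40 min and 1.54% at least 14 at 65 °C/40 min. In the pair, 2.26% and 1.99% held at least 11, and in fresh frozen liver 30.4% held at least 1. The fresh frozen peak was met in the 4 lists that had peaks, with scores of 11.0 at 50 °C/40 min, 11.5 at 65 °C/40 min, and 12.6 and 9.69 in the pair. Of the 8 sites in this window, 7 had no fresh frozen peak, and 3 of these had peaks in 4 FFPE lists. Over the genome, 36.3% of sites had FFPE peaks only, and 5.35% had them in 4 or 5 FFPE lists. These shares are not weighted for score.

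The site chr6:83597636-83601348 was the widest covered of those at Clec4f without a fresh frozen peak. FFPE peaks covered 1752 bp of it at 50 °C/40 min, 2643 bp at 65 °C/40 min, and 2204 and 2369 bp in the pair, with scores of 7.50, 11.9, 12.6 and 13.8. Beside it, chr6:83602359-83606467 held the fresh frozen peak. The highest peak of the window was chr6:83604975-83605674 at 50 °C/40 min (score 11.0) and chr6:83598765-83600549 at 65 °C/40 min (score 11.9). In each library of the pair a peak in each of these sites tied for the highest, with a score of 12.6 in the first (chr6:83599212-83601213 is the one in the site without a fresh frozen peak) and 13.8 in the second (chr6:83603668-83605030 is the one in the site with it).

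**Figure D3:**
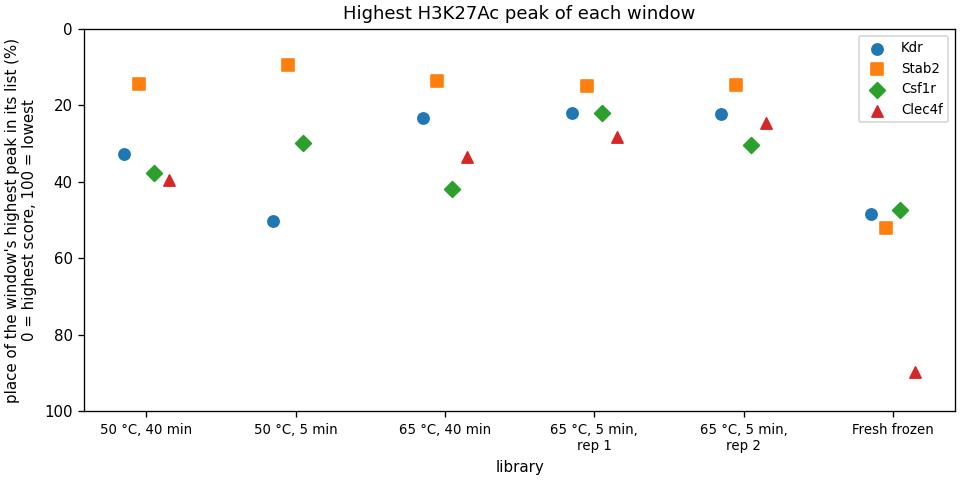
Place of the highest H3K27Ac peak of each window in its own list (y axis, percent, 0 at the top is the highest score) for the 5 long FFPE lists and fresh frozen liver (x axis). At 65 °C/5 min all 4 windows lie between 14.7% and 30.2% of their lists, and in fresh frozen liver between 47.4% and 89.8% of a list of another length. The Clec4f window has no point at 50 °C/5 min because it held no peak.

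A higher place in FFPE lists was also seen for weak fresh frozen peaks in general. Of the fresh frozen peaks of the windows that were met, 15 of 19 and 14 of 14 had a higher place in the pair's lists than in the fresh frozen list. Their median place was 26.9% and 30.9% in the pair and 72.9% and 69.9% in fresh frozen liver. Over all fresh frozen peaks below that list's median, 87.8% and 86.1% of those met stood higher in the pair, with median places of 28.3% and 30.2% in the pair and 71.8% and 71.3% in fresh frozen liver. The windows' values lie close to these. Both use the highest FFPE peak that overlaps each fresh frozen peak. Peaks that stand low in their own list also have more room above them than below. Neither set of values therefore shows a gain in FFPE tissue.

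In whole lists at 1 bp overlap, fresh frozen peaks of the windows were kept in FFPE tissue about as often as such peaks in general. Before weighting for score, the exception was 50 °C with 5 min. Weighted shares follow, and other settings are given at the end. Of the 23, 17 (73.9%) were met at 50 °C/40 min, against 73.2% of all fresh frozen peaks. At 50 °C/5 min 5 (21.7%) were met, against 43.7% of all. At 65 °C/40 min 17 (73.9%) were met, against 72.0%. In the pair 19 (82.6%) and 14 (60.9%) were met, against 73.0% and 70.2%, and the mean was 71.7% ± 15.4 (SD, n = 2). The Wilson 95% intervals for these 5 shares were 53.5 to 87.5%, 9.66 to 41.9%, 53.5 to 87.5%, 62.9 to 93.0% and 40.8 to 77.8%. They cover counting error only, and neighbouring peaks are not independent, so the intervals are a description and not a test. The whole-list share lay within the interval in each case except at 50 °C/5 min, where 43.7% is above 41.9%.

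The windows' fresh frozen peaks are weak, and weak peaks are met less often. When all fresh frozen peaks were weighted to the score quartiles of the 23 (0, 3, 11 and 9 from the highest quartile down), the shares were 60.6% at 50 °C/40 min, 27.5% at 50 °C/5 min, 58.9% at 65 °C/40 min, and 60.8% and 57.2% in the pair. The windows' share was above this value in 4 lists and below it at 50 °C/5 min. Only in the first library of the pair did the interval exclude it. At 50 °C/5 min the weighted 27.5% lay within the interval of 9.66 to 41.9%. By locus, the 5 Kdr peaks were met 1, 0, 3, 3 and 2 times in the order of lists above, and the 14 Stab2 peaks 12, 4, 11, 12 and 8 times. The 3 Csf1r peaks were met 3, 1, 2, 3 and 3 times, and the Clec4f peak 1, 0, 1, 1 and 1 time. Of the 23, 4 were met in all 5 lists and 2 in none. Of all fresh frozen peaks, 41.1% were met in all 5 and 16.6% in none, and these shares are not weighted for score.

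**Figure D4:**
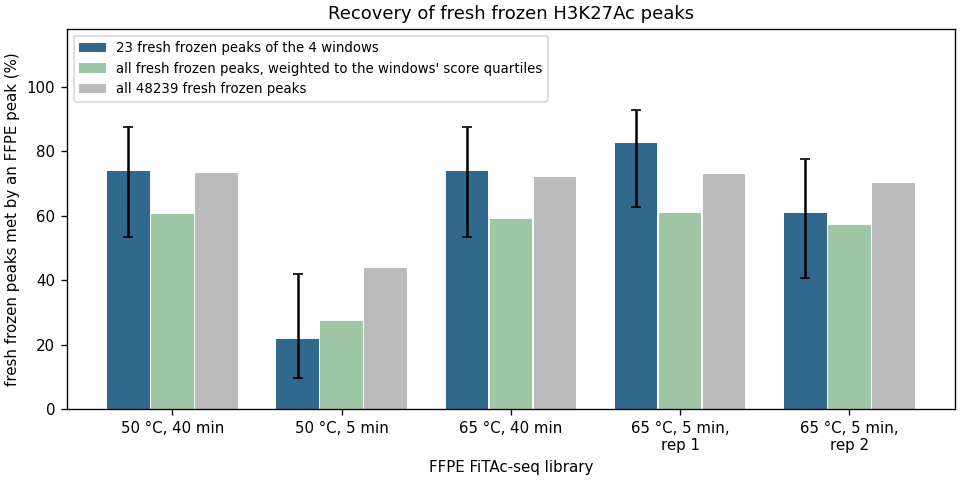
Percent of fresh frozen H3K27Ac peaks met by an FFPE peak in each long FiTAc-seq library, for the 23 peaks of the windows (blue, with Wilson 95% intervals), for all fresh frozen peaks weighted to the same score quartiles (green) and for all fresh frozen peaks (grey). At 50 °C/5 min the windows' share is 21.7%, and in the other 4 libraries it lies between 60.9% and 82.6%.

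In the other direction, most FFPE peaks of the windows had no fresh frozen counterpart. A fresh frozen peak was met by 13 of 55 (23.6%) at 50 °C/40 min, against 49.4% of the whole list, and by 4 of 9 (44.4%) at 50 °C/5 min, against 55.7%. At 65 °C/40 min the count was 14 of 49 (28.6%), against 49.6%. In the pair it was 17 of 55 (30.9%) and 13 of 41 (31.7%), against 44.3% and 46.4%, with a mean of 31.3% ± 0.564 (SD, n = 2). Weighted to the score quartiles of the windows' peaks, the whole lists gave 37.8%, 52.1%, 42.1%, 36.4% and 39.3%. The windows lay below this in all 5 lists, and no test of the difference was made. With the midpoint rule the mean of the pair was 19.8%, and with 30000 peaks per list it was 12.9%, against 33.0% and 57.1% of the whole lists. The cut to 30000 left 6 of the 23 fresh frozen peaks of the windows, so few FFPE peaks there could meet one. The share was lowest at Kdr and Clec4f, where 3 of 17 and 2 of 12 peaks at Kdr and 2 of 11 and 1 of 11 at Clec4f were met in the pair. At Stab2 it was 10 of 23 and 8 of 14, and at Csf1r 2 of 4 in each library.

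FFPE peaks without a counterpart were lower than those with one. In the pair their median score was 5.94 and 5.30, against 12.2 and 10.9 for the peaks that met a fresh frozen peak. Their median width was 264 and 313 bp, against 596 and 462 bp. The whole lists showed the same contrast, with median scores of 5.66 and 5.57 without a counterpart, against 15.1 and 12.8 with one, and median widths of 244 and 242 bp, against 829 and 748 bp. Of the windows' peaks without a counterpart, 28 of 38 (73.7%) and 17 of 28 (60.7%) in the pair had a fresh frozen peak within 5000 bp, against 77.7% and 79.2% of such peaks in the whole lists. The counts were 28 of 42 (66.7%) at 50 °C/40 min, 5 of 5 at 50 °C/5 min and 26 of 35 (74.3%) at 65 °C/40 min, against 83.9%, 87.0% and 84.0% of the whole lists. Joined into sites, the windows held 37, of which 14 had both fresh frozen and FFPE peaks, 1 had a fresh frozen peak only and 22 (59.5%) had FFPE peaks only. Of 46542 sites joined likewise over the genome, 52.4% had both, 11.3% a fresh frozen peak only and 36.3% FFPE peaks only, and these shares are not weighted for score. Peaks of all 6 lists lay in 5 of the windows' sites (13.5%), against 28.7% of sites over the genome. Of the 22 sites with FFPE peaks only, 9 had a peak in both libraries of the pair, 6 in 4 or 5 FFPE lists and 6 in 1 list alone. As shares of all sites these are 24.3%, 16.2% and 16.2% in the windows, against 9.90%, 5.35% and 19.7% over the genome.

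The pair repeated the windows about as well as other places. In the first library 34 of 55 peaks (61.8%) met a peak of the second, against 67.5% of the whole list. In the second library 31 of 41 (75.6%) met a peak of the first, against 77.1%. Per locus, the first library's peaks were shared in 9 of 17 cases at Kdr, 15 of 23 at Stab2, 3 of 4 at Csf1r and 7 of 11 at Clec4f. Nothing says that the libraries came from separate animals, so their spread may be technical.

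The windows held more peaks after 40 than after 5 min of sonication at 50 °C, and at 65 °C the difference was within the spread of the pair. At 50 °C, 40 min gave 55 peaks against 9 after 5 min, a ratio of 6.11, whereas the ratio over the whole lists was 1.70. The 50 °C/5 min list is shorter, with 38409 peaks, its depth is unknown, and the part of either in these differences was not tested. The fresh frozen peaks met numbered 17 after 40 min and 5 after 5 min, a difference of 52.2 percentage points, where all fresh frozen peaks gave 29.5 points. That value is not weighted for score. Weighted to the score quartiles of the windows' peaks, all fresh frozen peaks gave 60.6% after 40 min and 27.5% after 5 min. With only the 30000 highest peaks of each list, 40 min gave 15 peaks and 5 min 8, and the difference in recovery was 16.7 points over 6 fresh frozen peaks. At 65 °C, 40 min gave 49 peaks against a mean of 48 after 5 min, and the difference in fresh frozen peaks met was 2.17 points, less than the SD of 15.4. Temperature was compared likewise. At 5 min, 65 °C gave a mean of 48 peaks against 9 at 50 °C, and 71.7% against 21.7% of the fresh frozen peaks were met. At 40 min, 65 °C gave 49 peaks against 55 at 50 °C, and 17 fresh frozen peaks were met at each temperature. The spread between libraries at 40 min is unknown. All conditions but 65 °C with 5 min had 1 library, so these differences have no test.

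H3K4me2, a methylated lysine of histone H3 at promoters and enhancers, gave no peak in any window among the 11746 of its list. Of H3K4me2 tiles, 24.3% of those of 100 kb, 37.6% of 210 kb, 19.1% of 70 kb and 14.8% of 50 kb held a peak, so most tiles were empty at each length. The nearest H3K4me2 peak lay 26.9 kb outside the Kdr window, 37.4 kb outside that of Stab2, 26.9 kb outside that of Csf1r and 105 kb outside that of Clec4f. Over the whole genome 16.0% of fresh frozen H3K27Ac peaks met an H3K4me2 peak, and weighted to the quartiles of the 23 the share was 6.93%. The FiT-seq H3K27Ac list and the list at 80 °C held 115 and 65 peaks in all.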

How the data were processed

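Reads were aligned with BWA and peaks called with MACS2 on mm9, per the submitters' processing notes, with 1 list per library. Versions, thresholds and control use are not given in the sources used here. The score that the authors deposited for each peak was taken to be a −log10 q-value, since the 6 longest H3K27Ac lists stop near 2. Read depth is unknown, so no value has a depth-based error.

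Mitochondrial and unplaced peaks were left out, and starts are 1-based. Groups came from the sample titles, and the input DNA was not analysed here. An overlap of 1 bp or more made a peak met or shared. Tiles ran from the start of each chromosome to its farthest peak. They were not matched to the windows for gene content, and their shares were not recomputed with merged peaks. With 1 library in all but 1 condition, no test between conditions was made. The members, windows and lists were chosen with earlier results of these data known. Named peaks were every fresh frozen peak of a window with at most 10, otherwise the 5 highest, and the highest peak of each FFPE list. No mm9 annotation was used, so peaks carry no exon or intron and the planned marker lists at start sites were not run. Alternatives were a score of at least 5, merging within 500 bp, 2 other overlap rules, lists of 30000 peaks, an inner window and the pair without either library. The overlap and merging steps were tested on simulated lists. The tools were pandas 2.3.3, numpy 2.4.6, matplotlib 3.10.9 and scipy 1.17.1 in Python 3.11.15.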

Additional observations from a re-analysis of the deposited data

Results flagged for a closer look

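The values below were picked because they moved in opposite directions between conditions, and values that did not are left out. Each set includes a difference from the same 50 °C/5 min list, which held only 9 peaks in the windows. None of these differences was tested, because only 65 °C/5 min had a replicate, and many rest on a few peaks. In the Kdr window, 40 minus 5 min of sonication gave 12 peaks and 4226 bp of covered length at 50 °C. At 65 °C it gave -7 and -2 peaks and -867 and -677 bp against the first and second library of the pair. At Csf1r, 40 minus 5 min gave 528 bp and 2 fresh frozen peaks met at 50 °C, and -1618 and -1189 bp and -1 fresh frozen peak met against each library of the pair at 65 °C.

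For 65 minus 50 °C, the Kdr window gave 15 and 10 peaks at 5 min and -4 peaks at 40 min. The Stab2 window gave 8703 and 6355 bp and 8 and 4 fresh frozen peaks met at 5 min, and -443 bp and -1 fresh frozen peak met at 40 min. The Csf1r window gave 2 peaks and 2 fresh frozen peaks met with each library at 5 min, and -1 of each at 40 min. The Clec4f window gave 11 peaks with each library at 5 min and -2 peaks at 40 min.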

How the results depend on the processing

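Of the 54 recomputed values of the main results, 45 stayed within set limits. Counts were judged by a fixed ratio to the main value, and shares and differences by the SD of the pair. Leaving out either library of the pair always keeps a share or difference within that SD, and H3K4me2 could only stay at 0 peaks. The 45 are therefore not a measure of robustness. The mean of 48 peaks in the windows at 65 °C/5 min became 26.5 with peaks merged within 500 bp and 20 with 30000 peaks per list, and fresh frozen liver then held 6 instead of 23. The share of FFPE peaks met in fresh frozen liver, 31.3% in the pair, became 41.5% with merging, 27.4% with an overlap of 50% of the shorter peak, 19.8% with the midpoint rule and 12.9% with 30000 peaks. The whole lists gave 62.1%, 42.3%, 33.0% and 57.1% under these settings, and the windows lay below them each time. With 30000 peaks a low value was largely set in advance, because only 6 of the windows' 23 fresh frozen peaks remained. Fresh frozen peaks of the windows met in the pair, 71.7% against 71.6% of all, became 73.5% against 70.2% with merging. They were 65.2% against 68.4% with the 50% overlap, 58.7% against 65.9% with the midpoint rule and 58.3% against 74.8% with 30000 peaks. At 50 °C/40 min the shares were 76.5% against 71.7% with merging and 50.0% against 71.4% with 30000 peaks. The difference of 52.2 points between 40 and 5 min at 50 °C became 16.7 points with 30000 peaks, where it rests on 6 fresh frozen peaks. The shared portion of the pair, 68.7%, became 49.3% with the midpoint rule. Leaving out either library of the pair gave 41 to 55 peaks, 60.9% to 82.6% of fresh frozen peaks met, 30.9% to 31.7% of FFPE peaks met, and -8.70 to 13.0 points for 40 minus 5 min at 65 °C. That last difference was also -8.33 points with 30000 peaks, so its sign depended on the setting, within the spread of the pair. H3K4me2 stayed at 0 peaks. No paired analysis was possible because only 1 condition has replicate numbers.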
